A study of Drosophila melanogaster with 4 samples.

Results

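The piRNA cluster loci 38C, 20A and flamenco of Drosophila melanogaster were examined for H3K9me2, the dimethylation of histone H3 on lysine 9 that is typical of heterochromatin. They were set by position on FlyBase release 5, as 38C (chr2L:20100001-20230000), 20A (chrX:21390001-21435000) and flamenco (chrX:21500001-21690000). The rule used no measured values, but earlier results of these data were known when the loci were chosen. Cut into tiles of 1 kb from each first base, they gave 130, 45 and 190 tiles, or 365 of the 168710 whole tiles of all sequences named in the file headers. The tissue was wild-type Oregon-R embryos, collected at 14 to 16 h, and the same strain and stage were used for all 4 libraries, which are 2 ChIP libraries with an H3K9me2 antibody described as a new lot and the 2 input libraries set against them. Whole embryos were used, so the cells that carried the mark cannot be told apart. The labels do not say whether the replicates came from separate embryo collections, so SDs over the 2 libraries may be technical.

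The data were the authors' clusters of significant enrichment, as 1 list for each ChIP replicate and 1 combined list for the replicate set. Replicate 1 held 3579 clusters over 23.6 Mb, replicate 2 held 3238 over 21.6 Mb and the combined list held 4277 over 27.0 Mb. The lists carry no read counts, so the depth behind any region is unknown. Each list has its own length, so levels were compared within a list. With 2 libraries, an exact sign-flip permutation test of a difference cannot give a two-sided p below 0.5, so differences are given for each library with no test.

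PIWI-interacting RNAs (piRNAs) are small RNAs that guide PIWI proteins to silence transposons, and piRNA clusters are the transposon-rich loci that produce them. A dual-strand cluster, such as 38C, is transcribed from both strands in the ovarian germline and depends there on Rhino, a variant of heterochromatin protein HP1 that binds methylated H3 lysine 9. A single-strand cluster, such as 20A or flamenco, is transcribed from one strand, much like an ordinary gene. The flamenco locus is best known in the somatic follicle cells of the ovary, where it silences gypsy-type retrotransposons, and 20A is active in the germline. Embryos of this stage consist mostly of somatic cells. Gene positions on release 5 were not used here, so the identity of each locus rests on its coordinates. In a gene table of release 6, used for names and gene order only, the flamenco transcript lncRNA:flam is a long non-coding RNA whose neighbours are lncRNA:CR44712, with the protein-coding gene DIP1 next beyond it, and CG40813 on the other side.

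The 38C and flamenco loci were mostly covered by H3K9me2 clusters, and 20A was not. At 38C the covered share was 59.7% in replicate 1, 53.8% in replicate 2 and 67.3% in the combined list. At flamenco it was 65.6% in replicate 1, 62.0% in replicate 2 and 74.8% in the combined list. At 20A it was 24.7% in replicate 1, 17.2% in replicate 2 and 36.9% in the combined list. The order of the loci, with flamenco first, 38C next and 20A last, was the same in all 3 lists.

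**Figure D1:**
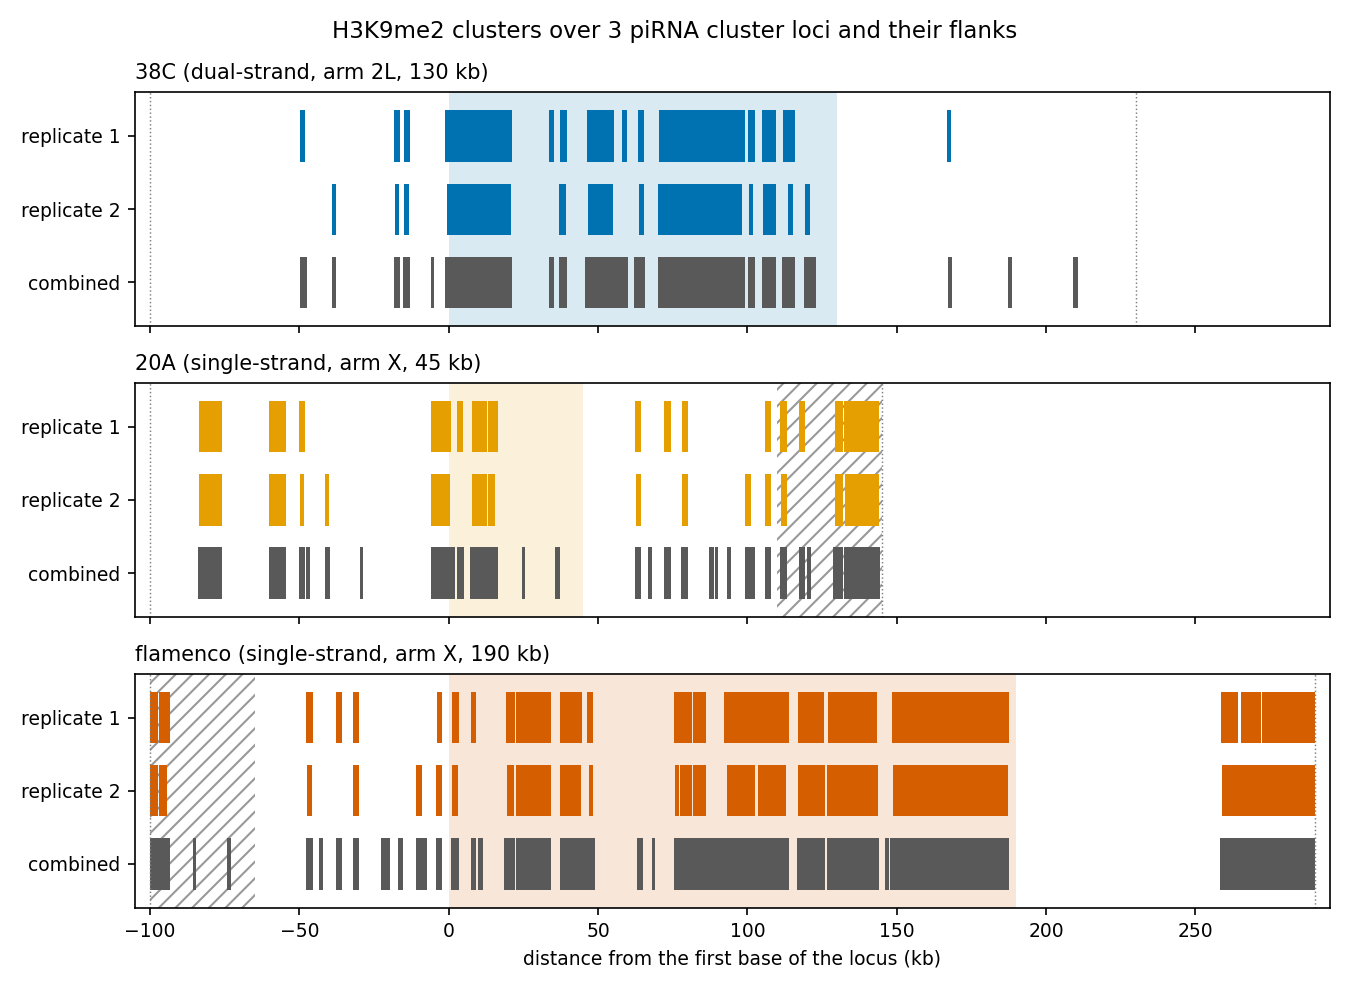
Clusters of H3K9me2 enrichment over each locus (coloured background) and 100 kb on each side (dotted lines), in kb from the first base of the locus, on 1 common scale. Each row is 1 list, each bar is a cluster, and hatching marks the neighbouring locus, which was left out of the flanks. Clusters fill most of 38C and of the right part of flamenco. Those of 20A end 16.6 kb into the locus in replicate 1 and 15.7 kb into it in replicate 2.

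Each locus was then set against 100 kb on each side. Because 20A and flamenco lie close together on X, tiles of one were left out of the flanks of the other, and the 65 kb between them served both loci. At 38C the mean was 56.8% ± 4.13 in the locus and 3.33% ± 0.975 in its flanks (SD, n = 2). The difference was 55.7 percentage points in replicate 1, 51.2 in replicate 2 and 60.1 in the combined list. At flamenco the mean was 63.8% ± 2.57 in the locus and 23.4% ± 0.244 in its flanks (SD, n = 2). The difference there was 42.4 points in replicate 1, 38.4 in replicate 2 and 44.8 in the combined list. These differences at 38C and flamenco were many times their spread between the replicates, which was 3.15 and 2.81 points (SD, n = 2). The locus 20A had a mean of 20.9% ± 5.30 and its flanks 17.9% ± 0.334 (SD, n = 2), and with these flanks the replicates differed in direction. The locus was 6.95 points above its flanks in replicate 1 and 1.02 points below them in replicate 2 (a difference of -1.02 points), so the mean difference, 2.96 points, was smaller than its SD of 5.64 points. In the combined list 20A was 10.6 points above its flanks. The direction at 20A depended on the flanks taken, since with 50 kb on each side the locus was 10.8 points above them in replicate 1 and 4.67 in replicate 2, and with 200 kb 8.32 and 2.83 points. Which locus differed most from its flanks also depended on the setting. The difference was larger at 38C than at flamenco with flanks of 100 kb, but with 50 kb it was 50.1 points at 38C and 55.9 points at flamenco, and in the upper 50% of each list by score 37.4 and 42.8 points (means of the replicates).

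**Figure D2:**
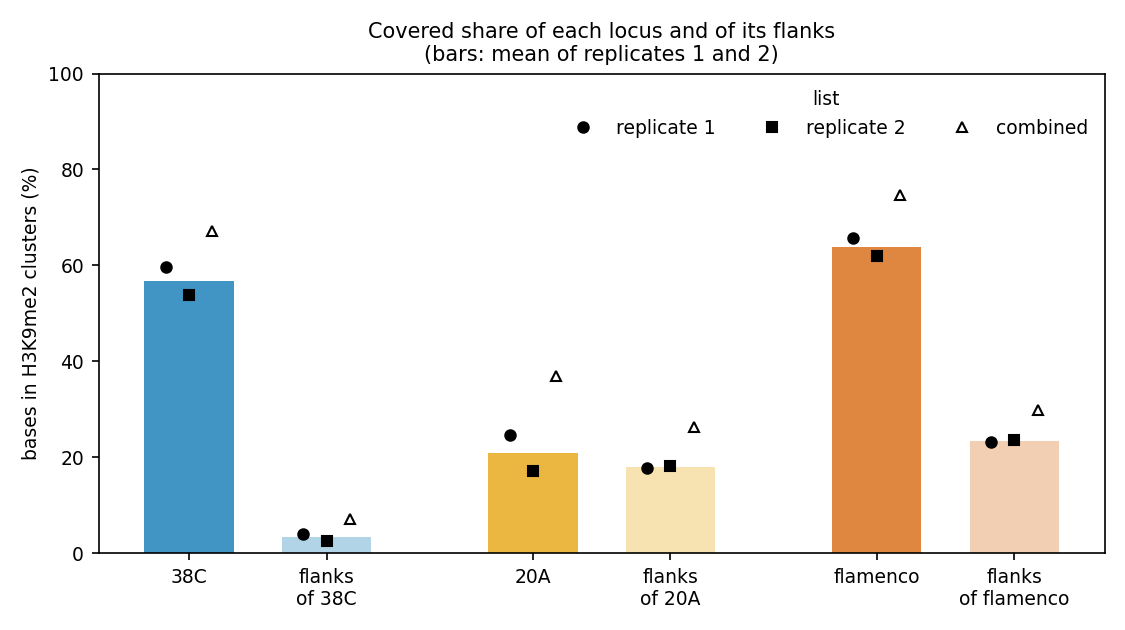
Share of bases in H3K9me2 clusters (vertical axis, %) in each locus (dark bars) and in its flanks (pale bars). Bars are means of the replicates, and symbols are the 3 lists. At 38C and flamenco every list lies above its value in the flanks, whereas at 20A the replicates, with 24.7% and 17.2%, lie on both sides of their flanks, with 17.7% and 18.2%.

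Counts of tiles, which were taken from the same clusters and are not a separate measure, gave the same order. A tile was counted as called where at least 50% of its bases lay in clusters. At 38C 79 of 130 tiles (60.8%) were called in replicate 1, 70 (53.8%) in replicate 2 and 89 (68.5%) in the combined list, against a background over all tiles of arm 2L of 6.22%, 5.26% and 7.78% in the same lists. In the flanks of 38C only 8, 5 and 15 of 200 tiles were called. At flamenco 125 of 190 tiles (65.8%) were called in replicate 1, 118 (62.1%) in replicate 2 and 141 (74.2%) in the combined list, where all tiles of arm X gave a background of 10.5%, 8.09% and 14.0%. The flanks of flamenco had 38, 38 and 51 called tiles of 165. At 20A 12 of 45 tiles (26.7%) were called in replicate 1, 8 (17.8%) in replicate 2 and 17 (37.8%) in the combined list. Its flanks had 30, 30 and 44 called tiles of 165, or 18.2%, 18.2% and 26.7%. In the last 1 Mb of X outside both loci, the background was 18.1% in replicate 1, 15.6% in replicate 2 and 23.1% in the combined list. The tiles of that stretch begin at 21422001, to the right of all replicate clusters of 20A, so only the right end of this locus lies within it. The share of called tiles at 20A in replicate 2, 17.8%, was near that of its flanks.

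Tiles were mostly either full or empty, which follows in part from the calls. The shortest cluster of each replicate list was 1.30 kb, longer than a tile, so a tile was partial only where a cluster ended in it. Flanks showed this too, and in replicate 1 those of 38C had 4 full and 188 empty tiles of 200. At flamenco 114 tiles were fully covered and 54 had no covered base in replicate 1, and in replicate 2 these numbers were 105 and 61. At 38C 68 tiles were full and 43 were empty in replicate 1, and 58 were full and 52 empty in replicate 2. At 20A 7 were full and 31 empty in replicate 1, and 5 were full and 35 empty in replicate 2. The median tile was covered over 100% in both replicates at flamenco, over 100% in replicate 1 and 81.2% in replicate 2 at 38C, and over 0% in both replicates at 20A.

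The dual-strand locus 38C consisted of 2 long blocks joined by a stretch of short clusters. The first block began just outside the locus, at 20098729 in replicate 1 and 20099287 in replicate 2, and ended at 20121062 and 20120944. In the combined list it was 22.4 kb long. The first 20 kb of the locus were fully covered in all lists. A stretch of 12.7 kb from 20121063 to 20133731 was then free of clusters in both replicates, the longest such stretch in 38C. The second block was the longest and the highest-scoring cluster of 38C in the combined list, from 20170173 to 20199218, or 29.0 kb. Replicate 1 covered 98.7% of it and replicate 2 covered 97.0%. The clusters of at least 10 kb, which were these 2 blocks in each list, held 64.1% of the covered bases of 38C in replicate 1, 67.3% in replicate 2 and 57.3% in the combined list.

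Between and beyond these blocks the coverage of 38C was partial in the replicates. From 20 to 70 kb into the locus, bins of 10 kb were covered over 10.6%, 38.2%, 36.6%, 68.7% and 21.1% in replicate 1. The same bins were covered over 9.44%, 23.8%, 29.9%, 48.9% and 16.5% in replicate 2. Both replicates thus had their highest value of this stretch at 50 to 60 kb. In the combined list the 5 bins were covered over 10.8%, 41.3%, 43.0%, 94.7% and 36.1%, so that the bin at 50 to 60 kb lay within the 92.2% to 100% of the bins from 70 to 100 kb. After the second block the coverage thinned out towards the right end, with 72.7%, 41.2% and 0% in the last 3 bins of replicate 1 and 56.2%, 22.7% and 9.35% in those of replicate 2. Those of the combined list were covered over 74.5%, 54.9% and 28.7%. The last base covered in both replicates was 20215110, which is 14.9 kb before the end of the locus. To the right of it the flank was almost bare. Replicate 1 had 1 cluster there, 1.33 kb long, replicate 2 had none, and the combined list had 3. The left flank was covered over 6.70% in replicate 1 and 5.27% in replicate 2, which includes the start of the first block.

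**Figure D3:**
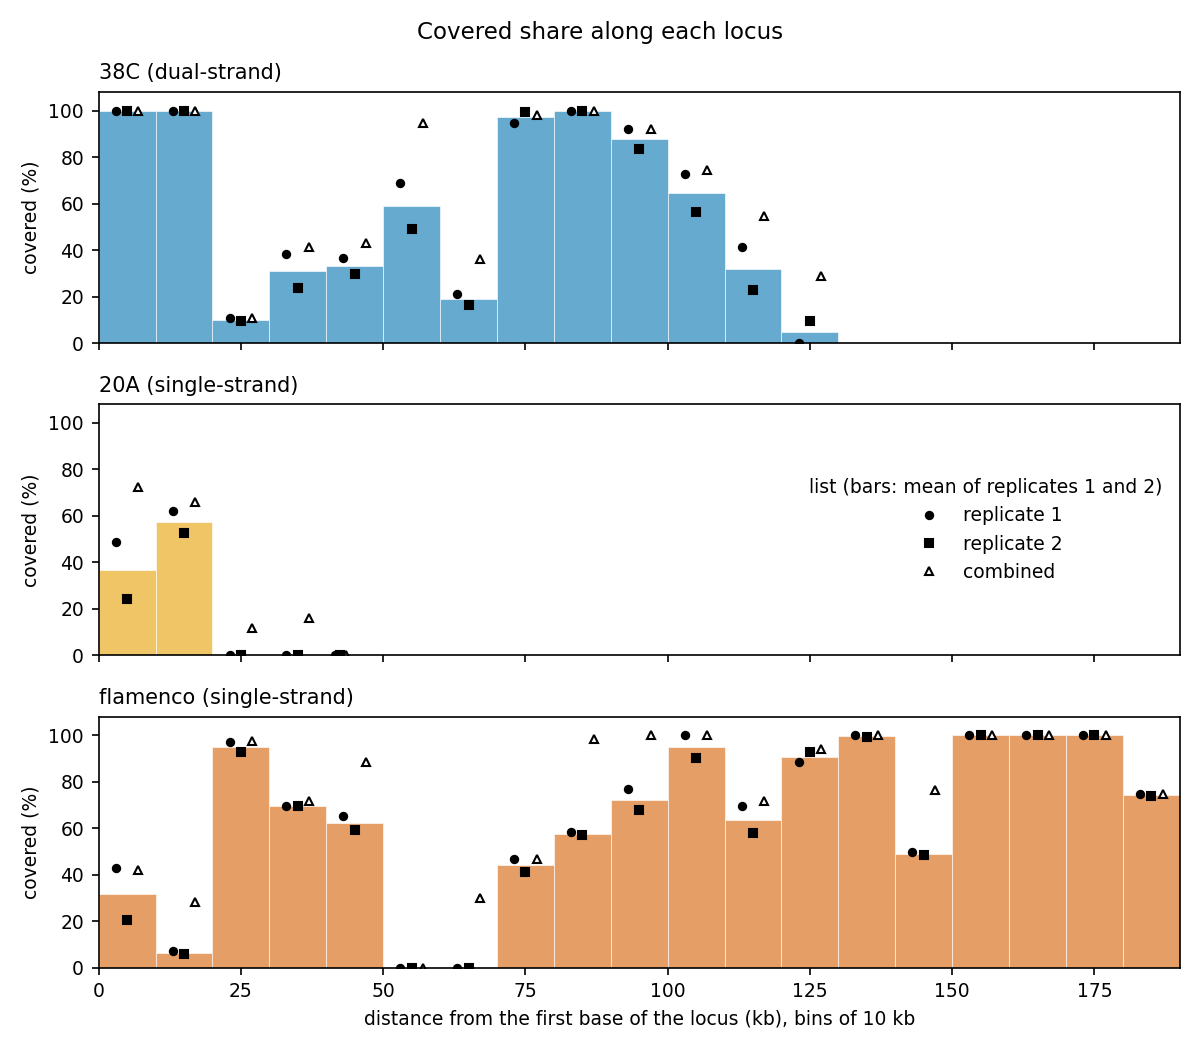
Covered share (vertical axis, %) in bins of 10 kb along each locus, with distance from its first base in kb on the horizontal axis; the last bin of 20A is 5 kb. Bars are means of the replicates and symbols are the 3 lists. In 38C high bins stand at 0 to 20 kb and at 70 to 100 kb, in 20A only the first 2 bins are covered in the replicates, and in flamenco bins from 150 to 180 kb are fully covered in every list.

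The flamenco locus was covered unevenly, with most of the covered bases on its right side. From its midpoint at 21595001 to its right end it was covered over 87.6% in replicate 1 and 85.6% in replicate 2, and on the left side over 43.6% and 38.4%. The right side minus the left side was 45.6 ± 2.22 percentage points (SD, n = 2), which is many times the spread between replicates, and it was 33.0 points in the combined list. This split was chosen after the data had been seen, and the spread between replicates does not measure variation along a locus. The longest cluster of the combined list lay at the right end, from 21647613 to 21687487, with 39.9 kb. It was a single cluster in both replicates, of 39.0 kb in replicate 1 and 38.6 kb in replicate 2. The highest-scoring one lay from 21581613 to 21613855 and spanned 32.2 kb, and the replicates covered 80.6% and 71.6% of it in 2 clusters and 3 clusters. Clusters of at least 10 kb held 71.3% of the covered bases of flamenco in replicate 1, 51.8% in replicate 2 and 79.5% in the combined list.

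The left side of flamenco held a covered part and a long bare part. From 20 to 50 kb into the locus, bins of 10 kb were covered over 97.1%, 69.7% and 65.1% in replicate 1 and over 92.8%, 69.7% and 59.2% in replicate 2. The stretch from 21548324 to 21575317, 27.0 kb long, was then free of clusters in both replicates. In the combined list 13.1% of it was covered, by 2 clusters of 2.00 kb and 1.01 kb that neither replicate touched and by the end of the cluster to its left, which reached 21548838. A shorter stretch, 6.19 kb from 21586138 to 21592326, was free in both replicates but fully covered in the combined list. Near the left end the coverage was sparse, with 43.0% in the first bin of replicate 1, 20.7% in that of replicate 2, and 7.12% and 6.05% in the second bin.

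The right end of flamenco was abrupt. The last cluster ended at 21687463 in replicate 1, 21687387 in replicate 2 and 21687487 in the combined list, 2.61 kb before the end of the locus for bases shared by the replicates. After the end of the locus no cluster followed for 68.5 kb in replicate 1, 68.8 kb in replicate 2 and 68.4 kb in the combined list. A long block then began, which in the combined list was 1 cluster of 53.4 kb with a score of 2.79. In the replicates the same block was split into 3 and 2 clusters within the flank, and these were the only clusters there, with 30.3% and 31.2% of the right flank covered. The left flank, the 65 kb towards 20A, was covered over 12.3% in replicate 1 and 11.9% in replicate 2 by 4 clusters in each, the longest of them 2.10 kb. Assembly gaps and sequence where reads cannot be placed were not assessed, and their part in the bare stretches was not tested.

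The locus 20A carried its clusters in the left part only in both replicates. Replicate 1 covered 11.1 kb of it and replicate 2 covered 7.72 kb. The longest and highest-scoring cluster of the combined list spanned 9.44 kb from 21397162 to 21406600. Replicate 1 had it as 2 clusters, with scores of 1.84 and 3.02, and replicate 2 also as 2 clusters, with scores of 2.03 and 3.20. The higher of these scores stood at percentile 93.1 of the list of replicate 1 and at percentile 88.0 of that of replicate 2. The lower score, that of the longer piece, stood at percentiles 63.7 and 54.9. The combined cluster stood at percentile 82.6, although the locus was little covered. From 21406600 to the end of the locus, 28.4 kb were free of clusters in both replicates. The combined list had 2 clusters in that stretch, of 1.16 kb and 1.63 kb, which neither replicate touched. At the left end a cluster that began in the flank, at 21384157 in replicate 1 and 21384186 in replicate 2, reached less than 1 kb into the locus.

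The comparison of the dual-strand locus with the single-strand loci depended on which single-strand locus was taken. The covered share of 38C exceeded that of 20A by 35.0 points in replicate 1, 36.7 in replicate 2 and 30.3 in the combined list. Against flamenco, 38C had the lower share, with differences of -5.94, -8.14 and -7.50 points in the same lists. Joined by length, 20A and flamenco were covered over 55.6% ± 3.09, so 38C, with 56.8% ± 4.13, differed from them by 1.17 ± 1.04 points (SD, n = 2). In the combined list this difference was -0.26 points. A mean of the 2 single-strand shares without weights gave a difference of 14.4 points in favour of 38C, since 20A then counts as much as flamenco. The joined share mostly reflects flamenco, which has 190 kb against 45 kb for 20A. Because the share of 38C lay between those of 20A and flamenco, its distance from their joined share could not exceed the gap between them. The covered share of flamenco exceeded that of 20A by 42.9 ± 2.74 points (SD, n = 2). The only dual-strand locus lies on 2L, 2.78 Mb from the right end of the arm. Both single-strand loci lie on X, 0.988 Mb (20A) and 0.733 Mb (flamenco) from its right end. Strand class can therefore not be told apart from arm or place on the arm.

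The clusters of 38C and flamenco also ranked differently by the authors' score, which has no stated scale and was used only to rank clusters within a list. Of the 38C clusters, 3 of 10 scored above the median of the whole list in replicate 1, 2 of 11 in replicate 2 and 9 of 13 in the combined list. Of the flamenco clusters, 10 of 12, 12 of 14 and 12 of 14 did so. Of the 20A clusters, 2 of 4, 2 of 3 and 3 of 5 did so. The median percentile of the clusters in their list was 45.8 at 38C, 75.2 at flamenco and 50.9 at 20A in replicate 1. In replicate 2 the medians in the same order were 27.5, 71.3 and 54.9. In the combined list they were 59.6, 73.6 and 52.8. Set against the other clusters of the same arm, the median scores of all 3 loci were higher in every list. At 38C they were 1.08, 1.04 and 1.05 in replicate 1, replicate 2 and the combined list, against 0.659, 0.959 and 0.515. At flamenco they were 2.33, 2.61 and 1.82, against 0.790, 1.04 and 0.602. At 20A they were 1.36, 2.03 and 0.836, against 0.798, 1.05 and 0.603.

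**Figure D4:**
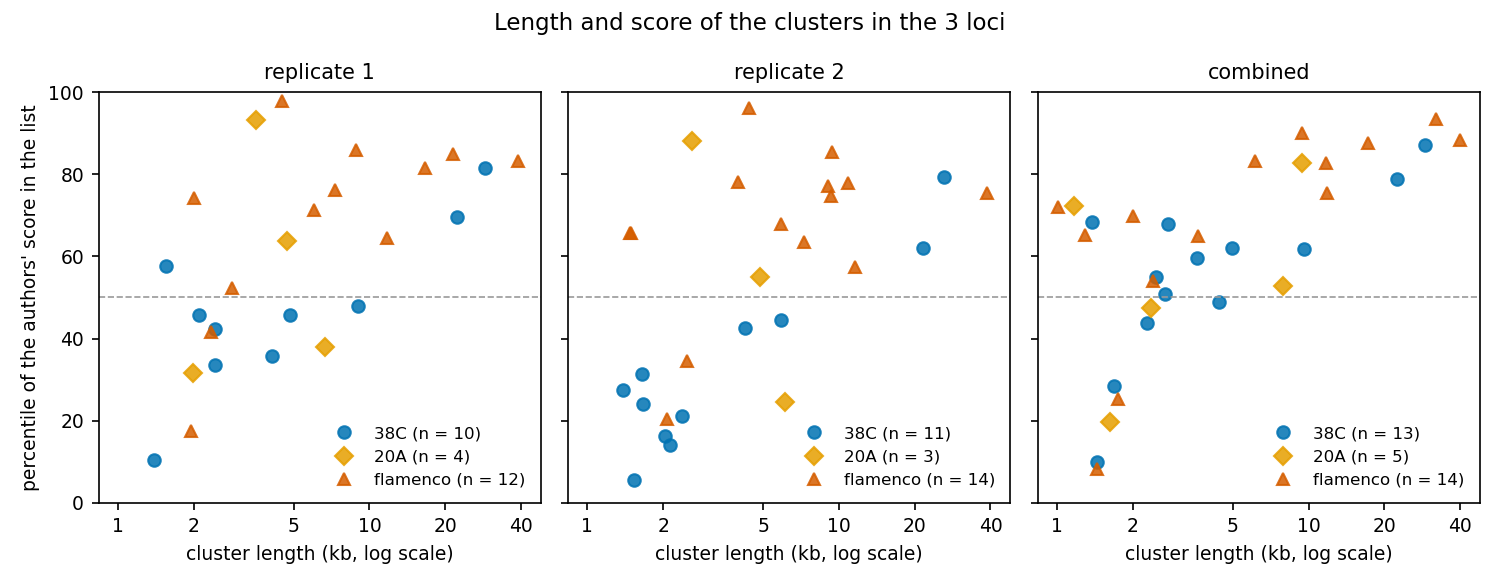
Length (horizontal axis, kb, log scale) and percentile of the authors' score within the list (vertical axis) of each cluster that touches a locus, 1 panel for each list. The dashed line is the list median. The short clusters of 38C lie mostly under the line in the replicates, its 2 long blocks lie above it, and most flamenco clusters lie above it.

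The lowest ranks at 38C belonged to short clusters. Its second block stood at percentile 81.4 in replicate 1 and 79.3 in replicate 2, close to the longest flamenco cluster with 83.3 and 75.4. The lowest-ranking 38C cluster stood at 10.5 in replicate 1, with a length of 1.39 kb, and at 5.65 in replicate 2, with a length of 1.53 kb. By bases, clusters in the upper 50% of their list by score held 66.1% of the covered length of 38C in replicate 1, 67.3% in replicate 2 and 88.8% in the combined list. Over the whole of arm 2L these shares were 55.3%, 51.0% and 65.2%. At flamenco such clusters held 96.6%, 96.1% and 97.8% of the covered length, where the whole of arm X had 38.3%, 24.5% and 56.5%. At 20A they held 74.5%, 96.3% and 76.0%. With the upper 50% of each list alone, 38C was covered over 37.9% and flamenco over 61.5% (means of the replicates), and 38C minus the joined single-strand loci was -15.2 points.

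Within each locus, most tiles called in either replicate were called in both. Such counts are not given for the rest of the arms. At flamenco 117 tiles were called in both replicates, 8 in replicate 1 alone and 1 in replicate 2 alone. At 38C 67 tiles were called in both, 12 in replicate 1 alone and 3 in replicate 2 alone. At 20A 8 tiles were called in both, 4 in replicate 1 alone and 0 in replicate 2 alone. The Jaccard index of the replicates, which is the length covered in both divided by the length covered in either, was 0.934 at flamenco, 0.846 at 38C and 0.678 at 20A. Outside the loci it was 0.760 on arm 2L and 0.649 on arm X, so the value at 20A was near that of the rest of its arm. This index rises with the covered share, so it does not rank the loci by agreement. Ends of long blocks were also close. For the 10 combined clusters of at least 9 kb, the outermost bases in the replicates differed by a median of 208.5 bp over 20 ends, and by at most 955 bp.

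Of the combined clusters, both replicates touched 8 of 13 at 38C, 9 of 14 at flamenco and 2 of 5 at 20A. The combined clusters touched by neither replicate numbered 1 at 38C, 4 at flamenco and 2 at 20A, and they were 1.01 to 2.00 kb long. Bases covered in the combined list alone came to 5.42 kb at 20A, of the 16.6 kb covered there in that list. At flamenco they came to 16.9 kb of 142 kb and at 38C to 7.96 kb of 87.4 kb. The same shares over all combined clusters are not given here, so these counts and lengths do not set the loci apart from the rest of the list.

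Along their arms, 38C and flamenco stood out from most windows of their own length. On arm X, 115 windows of 190 kb were laid side by side from the first base, leaving out those touching flamenco or 20A. None of them reached the covered share of flamenco in any list. The highest of them had 32.2% in replicate 1, 28.3% in replicate 2 and 38.7% in the combined list. On arm 2L, 6 of 175 other windows of 130 kb reached the share of 38C in each list, and all 6 touched the last 1 Mb of the arm, next to the centromere. Away from that end the highest window had 21.6% in replicate 1, 21.6% in replicate 2 and 35.1% in the combined list. Of the 491 other windows of 45 kb on X, 31 reached the share of 20A in replicate 1, 56 in replicate 2 and 25 in the combined list. Among those outside the last 1 Mb, the highest had 93.2%, 84.9% and 93.5% in these lists. Stretches of this shorter length thus exceeded the share of flamenco elsewhere on X. In the last 1 Mb of X, flamenco held 46.8% of the covered bases in replicate 1, 49.3% in replicate 2 and 43.9% in the combined list, with 19.0% of the length. On arm 2L, 38C held 5.40%, 5.81% and 4.90% of the covered bases in these lists with 0.565% of the length. These values describe positions within 2 libraries and were not tested.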

How the data were processed

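The deposited files hold clusters of significant enrichment with a first base, a last base and a score. The genome build is FlyBase release 5, per the file headers. The submitters' processing notes name Bowtie 0.12.7. The cluster caller, its threshold, the treatment of reads that map to several places and the scale of the score, as deposited by the authors, are details not given in the sources used here. In transposon-rich loci the placing of such reads bears on every covered share.

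Covered bases were counted with Python 3.11.15 and numpy 2.4.6, in windows, in 1 kb tiles and in flanks, and the counting was tested on simulated clusters of known coverage. Clusters past a sequence end were trimmed. The named regions were, in each locus, the longest and the highest-scoring combined cluster, the longest stretch free in both replicates, and the outermost shared bases. Further stretches were named after their values were seen. Loci, lists and alternatives were chosen with earlier results of these data known. The input libraries enter only through the authors' calls. Sequences were not used here.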

Additional observations from a re-analysis of the deposited data

How the results depend on the processing

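Of 90 alternative values, 64 kept their direction and stayed within the replicate SD, or within 1.5 times the value for counts and Jaccard indices, 21 moved and 5 changed sign. When clusters were limited to the upper 50% of scores in a list, 38C was covered over 37.9%, with a difference from its flanks of 37.4 points and 49 called tiles, and its differences from 20A, flamenco and the joined single-strand loci were 20.4, -23.6 and -15.2 points. The same setting gave 13.9 points for 20A against its flanks and 50.3 points for the right minus the left side of flamenco. With the combined list, the covered shares of 38C, 20A and flamenco were 67.3%, 36.9% and 74.8%, and their differences from the flanks 60.1, 10.6 and 44.8 points. That list gave 17 called tiles at 20A, 30.3 points for 38C minus 20A, -0.26 points for 38C minus the joined single-strand loci, and 33.0 points for the sides of flamenco. With flanks of 50 kb the differences were 50.1 points at 38C and 55.9 points at flamenco, and with 200 kb 32.6 points at flamenco. With 100 kb flanks, 20A minus its flanks ranged from -1.02 to 6.95 points over single replicates. With the tiles of flamenco also kept in these flanks it was -2.65 points, with 0.599 in replicate 1 and -5.90 in replicate 2. With flanks of 50 kb it was 7.73 points and with 200 kb 5.58 points. With 10 kb left out at each end of every locus, 38C differed by 34.6 points from 20A and by -2.10 points from the joined single-strand loci. Weighing both single-strand loci equally gave 14.4 points. Beyond what each setting alters by design, the cause was not tested. The differences of 38C and flamenco from their flanks, of 38C from 20A and of 38C from flamenco kept their direction under every alternative run. Alternatives for single pairs of loci, for the sides of flamenco and for the Jaccard indices were chosen after seeing the data. With 2 replicates, dropping 1 always moves a mean by less than the SD. Such values could therefore only stay or change sign where the SD was the limit, and those that stayed are counted among the 64. No paired analysis was possible because clusters were listed for ChIP libraries only. The lists do not show sequencing depth.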
